A study of Mus musculus with 3 samples.

Results

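The 8 genes described here are the transcription factor gene Atf4 and 7 genes known as its targets under amino acid shortage, which are Chac1, Trib3, Ddit4, Slc7a11, Asns, Psat1 and Phgdh. They were taken by symbol from the gene lists of 3 single-cell RNA libraries, which hold 32285 genes each, and every symbol matched exactly 1 row. The libraries come from organoids, which are 3-dimensional epithelial cultures, derived from submandibular glands, a pair of major salivary glands, of 8 to 12 week old C57BL/6 mice. Organoids of 4 animals were pooled, and 1 library was made per group, so cells cannot be tied to an animal. The control group was not irradiated, the photon group received 7 Gy of photons and the proton group 7 Gy of protons in the beam plateau on day 5. All were collected on day 11, that is 6 days after irradiation, and all were cultured with EGF, FGF2, insulin, the glucocorticoid dexamethasone, the ROCK inhibitor Y27632 and Wnt3a and R-spondin1 conditioned media.

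ATF4 is a basic leucine zipper factor at the centre of the integrated stress response. When amino acids run short, the endoplasmic reticulum is overloaded, heme is lacking or viral RNA is present, 4 kinases can phosphorylate the translation factor eIF2, general protein synthesis slows and the Atf4 transcript is translated better. Its abundance as RNA is therefore only part of its control. ATF4 binds composite C/EBP-ATF elements and raises genes for amino acid import and synthesis, for tRNA charging and for feedback on the response itself.

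Composite elements were looked for in the 250 bases before each RefSeq transcript start of the 8 genes (build GRCm38.p6), with the core TGATGNAA on either strand, where N is any base. All 8 genes had an entry, and the core occurred in 3 of them, Chac1, Slc7a11 and Asns, against 3.91% of 27025 genes (3.45% of 32851 windows). These 3 are printed because Chac1 and Slc7a11 were the members furthest below control in the photon library while Asns, with the same core, was not below control. Capitals mark the core, and each line runs 5′ to 3′ on the strand of the gene.
Chac1: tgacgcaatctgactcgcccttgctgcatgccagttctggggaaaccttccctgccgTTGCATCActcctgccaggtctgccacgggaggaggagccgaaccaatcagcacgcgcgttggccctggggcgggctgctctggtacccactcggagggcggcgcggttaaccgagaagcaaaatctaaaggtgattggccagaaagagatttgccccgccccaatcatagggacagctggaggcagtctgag
Slc7a11: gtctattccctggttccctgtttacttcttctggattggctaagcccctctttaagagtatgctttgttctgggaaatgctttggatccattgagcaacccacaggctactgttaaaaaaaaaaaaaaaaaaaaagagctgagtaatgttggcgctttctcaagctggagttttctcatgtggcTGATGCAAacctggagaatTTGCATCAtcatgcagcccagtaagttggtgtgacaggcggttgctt
Asns: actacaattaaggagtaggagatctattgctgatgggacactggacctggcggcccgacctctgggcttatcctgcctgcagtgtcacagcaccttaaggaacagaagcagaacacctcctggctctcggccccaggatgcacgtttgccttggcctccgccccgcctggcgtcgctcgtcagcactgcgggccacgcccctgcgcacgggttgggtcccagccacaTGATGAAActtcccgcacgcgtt
The Chac1 window lies at chr2:119350992-119351241 on the plus strand, and its core spans bases 193 to 186 before the start on the opposite strand. The Slc7a11 window lies at chr3:50443614-50443863 on the minus strand and holds 2 cores in opposite orientations, at bases 66 to 59 and 47 to 40 before the start. In the Asns window, at chr6:7693210-7693459 on the minus strand, the core spans bases 23 to 16 before the start. A match is a description of letters and not a shown binding site. The windows of Atf4, Trib3, Psat1, Phgdh and Ddit4 do not hold these letters, which says nothing on elements elsewhere.

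After filtering, the libraries held 13219 control, 15041 photon and 13956 proton cells with medians of 2757, 2808 and 2223 UMIs (unique molecular identifiers, each a counted transcript). Mitochondrial genes took 3.29%, 2.23% and 1.80% of UMIs in control, photon and proton. The cultures carried epithelial keratins, whereas summed acinar markers reached only 41.3 to 58.1 CPM (UMIs of a gene per 1000000 UMIs of the library) and immune, fibroblast, endothelial and erythroid markers 0.0818 to 3.27 CPM. Between 49 and 56 cell barcodes were shared by any pair of libraries, at most 0.424% of a library. With 1 library per group, differences are between libraries and could not be set against a spread of replicates, and both comparisons with control share the same control cells. Ranges in parentheses are exact 95% counting intervals, and PCR, culture and animal spread are not in them.

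The members that stood out in the irradiated libraries were lower than in control, namely Chac1 and Slc7a11 in both, Trib3 in photon and Atf4 and Ddit4 in proton, while none (0) of the 3 biosynthetic enzymes was called in either. Photon against control, 3 of 8 members were at least 1.5-fold lower (Chac1, Trib3 and Slc7a11) and 0 were higher. Among all 5790 genes with a mean of at least 25 CPM over both libraries, 8.19% were that much lower and 5.75% higher. The median log2 CPM ratio of the 8 members was -0.29, beside -0.11 over all those genes. In proton, 7 of 8 members reached 25 CPM, and 4 of those were at least 1.5-fold lower than control (Atf4, Chac1, Ddit4 and Slc7a11) with 0 higher. The shares over all 5870 genes were 14.9% lower and 10.8% higher. The median log2 ratio was -0.77 over the 8 members and 0.00 over all genes. Trib3, at 32.5 and 17.2 CPM, was just short of the level. Scaling by the median of gene ratios moved the median log2 ratio over all genes in photon from -0.11 to 0.03, and the higher share of all genes called from 41.3% to 70.9%. Trib3 was then 0.693 times control and no longer past 1.5-fold, and Phgdh was past it, at 1.61.

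**Figure D1:**
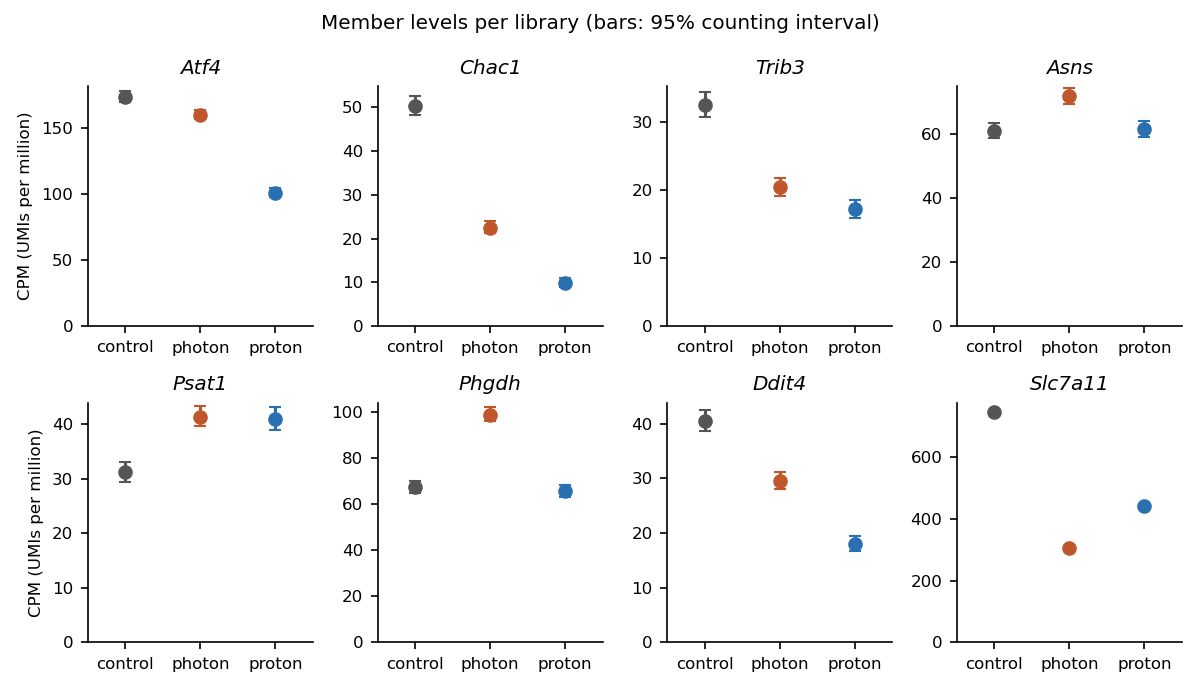
CPM of each member (y axis, from 0) in the control, photon and proton libraries (x axis); points are library values and bars 95% counting intervals. Chac1 steps down from 50.4 to 22.5 to 9.81 CPM, while Psat1 is higher in both irradiated libraries than in control.

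Atf4 (ENSMUSG00000042406, chromosome 15, 80255184 to 80257541, plus strand) stood at 174 CPM (170 to 178) in control, 160 CPM (157 to 164) in photon and 101 CPM (98.0 to 105) in proton. The 3 intervals do not overlap, with control highest and proton lowest. The photon ratio to control was 0.920 (0.890 to 0.950) and the proton ratio 0.581 (0.558 to 0.605). The small photon difference rests on the scaling, since the ratio was 1.01 when libraries were scaled by the median of gene ratios.

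Chac1 (ENSMUSG00000027313, chromosome 2, 119351229 to 119354381, plus strand) encodes an enzyme that cleaves glutathione in the cytosol. It stood at 50.4 CPM (48.2 to 52.7) in control, 22.5 CPM (21.2 to 23.9) in photon and 9.81 CPM (8.82 to 10.9) in proton, so the libraries are well apart in the same order as for Atf4. Its ratio to control was 0.447 (0.414 to 0.482) in photon and 0.195 (0.173 to 0.218) in proton, the lowest proton ratio of the 8 members. The proton value was in turn 0.435 times that of photon (0.385 to 0.491).

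Trib3 (ENSMUSG00000032715, chromosome 2, 152337422 to 152344032, minus strand) encodes a pseudokinase that damps ATF4 activity. It stood at 32.5 CPM (30.8 to 34.4) in control, 20.5 CPM (19.2 to 21.8) in photon and 17.2 CPM (15.9 to 18.6) in proton, with ratios to control of 0.630 (0.579 to 0.685) and 0.528 (0.480 to 0.582). The irradiated libraries lay closer to each other than to control, with proton at 0.839 times photon (0.758 to 0.929).

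Ddit4 (ENSMUSG00000020108, chromosome 10, 59949669 to 59951834, minus strand) encodes REDD1, an inhibitor of mTORC1 that glucocorticoids and p53 are also known to raise. It stood at 40.6 CPM (38.6 to 42.6) in control, 29.6 CPM (28.1 to 31.2) in photon and 18.0 CPM (16.7 to 19.4) in proton. The intervals are separate and the order over all cells is again control, photon, proton, though not in cells under 1000 UMIs. The ratios to control were 0.730 (0.678 to 0.784) and 0.444 (0.405 to 0.486).

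Slc7a11 (ENSMUSG00000027737, chromosome 3, 49892526 to 50443614, minus strand) encodes xCT, the cystine-glutamate exchanger that supplies cysteine for glutathione and that NRF2 also controls. It broke the order, at 746 CPM (737 to 754) in control, 305 CPM (300 to 310) in photon and 441 CPM (435 to 448) in proton. Photon was the lowest library for this gene and proton stood 1.45 times above it (1.41 to 1.48). Slc7a11 alone among the 8 was higher in proton than in photon by an interval clear of 1, though below the 1.5-fold limit. The annotated span of the gene is 551 kb, the widest of the members, and it overlaps 5 other annotated features, 2 of them on the same strand. The labels and headers do not say whether intronic reads or strand were counted, so some of its UMIs may belong to introns or neighbours.

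The 3 biosynthetic enzymes did not share this pattern. Asns (ENSMUSG00000029752, chromosome 6, 7675169 to 7693254, minus strand), asparagine synthetase, stood at 61.1 CPM (58.7 to 63.6) in control, 71.8 CPM (69.4 to 74.3) in photon and 61.6 CPM (59.1 to 64.2) in proton. Over all cells control and proton do not differ beyond counting error, with a ratio of 1.01 (0.950 to 1.07). Photon was 1.17 times control (1.11 to 1.24).

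Psat1 (ENSMUSG00000024640, chromosome 19, 15904678 to 15947337, minus strand), the aminotransferase of serine synthesis, stood at 31.3 CPM (29.5 to 33.0) in control, 41.4 CPM (39.6 to 43.3) in photon and 41.0 CPM (39.0 to 43.1) in proton. Both irradiated libraries lay above control, at 1.32 (1.23 to 1.42) and 1.31 times (1.22 to 1.42), and they overlapped each other. Phgdh (ENSMUSG00000053398, chromosome 3, 98313170 to 98339990, minus strand), the dehydrogenase of the first step of serine synthesis, stood at 67.4 CPM (64.8 to 70.0) in control, 98.7 CPM (95.9 to 102) in photon and 65.5 CPM (62.9 to 68.2) in proton. Its photon library stood apart, 1.47 times control (1.40 to 1.54), whereas proton and control overlapped at a ratio of 0.972 (0.920 to 1.03). A processed pseudogene overlaps Psat1 on the opposite strand, so the assignment of some of its reads is uncertain.

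Between the irradiated libraries, Atf4 and Phgdh were at least 1.5-fold lower in proton than in photon and 0 members were higher, among 5 members at 25 CPM. Over all 5814 genes 16.3% were that much lower and 22.7% higher. The median log2 ratio was -0.42 for the 8 members and 0.08 over those genes. Of all genes called here 58.2% were higher, or 37.6% with scaling by the median of gene ratios. The Atf4 ratio was 0.632 (0.607 to 0.657) and that of Phgdh 0.663 (0.631 to 0.697), just inside the limit. Ddit4 and Chac1, at 0.608 and 0.435 times photon, did not reach the level of 25 CPM.

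**Figure D2:**
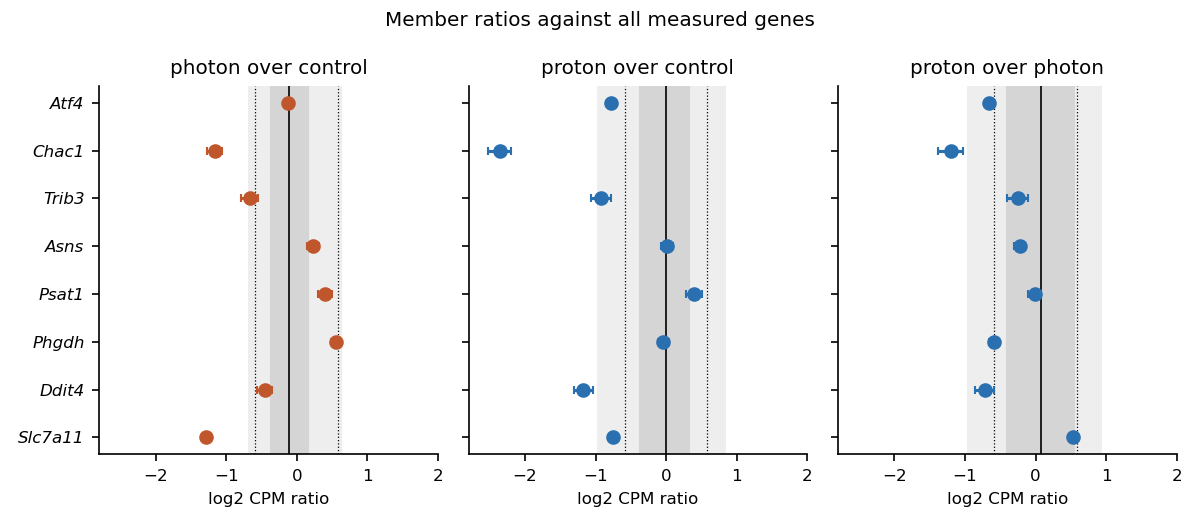
Log2 CPM ratio (x axis) of each member (y axis) in the 3 comparisons, with 95% counting intervals. Shading spans the middle 50% (dark) and 90% (light) of all genes at 25 CPM, the solid line is their median and dotted lines mark 1.5-fold; Chac1 lies left of the light band in all 3 panels.

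Each of these differences could also be read as a share of cells. After every cell was thinned to 2000 UMIs, 9620 control, 10891 photon and 7939 proton cells remained, with median full depths of 3210, 3381 and 3118. An Atf4 UMI was found in 29.9% of control cells (29.0 to 30.8), 27.1% of photon cells (26.2 to 27.9) and 18.2% of proton cells (17.3 to 19.0). A Chac1 UMI was found in 10.1% (9.49 to 10.7), 3.96% (3.60 to 4.34) and 1.79% (1.51 to 2.10). Chac1 thus went from 970 to 431 to 142 cells, and its highest count in a thinned cell was 4, 3 and 2 UMIs. Without thinning the Chac1 shares over all kept cells were 12.8%, 6.46% and 2.53%.

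Slc7a11 was the most widely detected member, in 60.3% of control (59.3 to 61.3), 34.1% of photon (33.2 to 35.0) and 42.1% of proton cells (41.0 to 43.2), or 70.5%, 45.9% and 48.9% without thinning. Trib3 was found in 6.40%, 3.81% and 3.06% of cells and Ddit4 in 7.91%, 5.51% and 3.43%. In all, 5 of 8 members were found in a smaller share of cells in both irradiated libraries than in control, with separate intervals. Of the 7 members with a mean of at least 25 CPM over the 3 libraries, 4 were (all but Trib3 of the 5), beside 17.7% of all 5846 such genes. Psat1 alone had a larger share in both, beside 10.9% of those genes. For the enzymes the shares were 10.5%, 12.5% and 10.8% (Asns), 5.57%, 7.45% and 7.75% (Psat1) and 12.6%, 16.9% and 12.0% (Phgdh). No cell type sure to lack these genes was present in number, so the share due to free RNA in the droplets was not measured.

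Counted per cell, 17.0% of control cells (16.3 to 17.8) had a UMI of none (0) of the 8 genes, against 30.0% of photon (29.1 to 30.8) and 33.6% of proton cells (32.6 to 34.7). Slc7a11, found in 60.3%, 34.1% and 42.1% of these cells, weighs most in this count, which does not show a loss across all members. Cells with UMIs of 4 or more members made up 2.81% of control, 1.74% of photon and 1.03% of proton cells. Their median full depth was 3132, 3779 and 3303 UMIs.

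Pairs of the enzymes met in the same cells more often than their separate frequencies give. In the photon library Asns and Psat1 were found together in 175 cells where 102 would be met by independence, a factor of 1.72, and Psat1 and Phgdh in 212 cells against 137, a factor of 1.54. In proton these factors were 1.63 and 1.48, and in control 1.26 and 1.25. Atf4 and Chac1 met at 1.11, 1.24 and 1.78 times independence in control, photon and proton, the last on 46 cells. Trib3 and Ddit4 met at 1.21, 1.75 and 1.68 times, and Chac1 and Ddit4 at 1.45, 0.969 and 2.06 times, the last on 10 cells. Factors of this size were thus not particular to the enzymes. Such weak co-occurrence in sparse counts is given as a description.

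The 5 marker genes named by the selection rule were then used to gate the thinned cells. These were Krt14, a keratin of basal cells, Cldn4, a claudin of luminal tight junctions, Krt13, a keratin of stratified squamous epithelium, Top2a, a topoisomerase of dividing cells, and Vim, the intermediate filament vimentin. A cell was counted as rich in a marker at 2 or more UMIs, or at 5 or more for Krt14, where 5 was the 75th percentile. The Krt14-rich cells numbered 2565 in control, 4124 in photon and 702 in proton, the Cldn4-rich cells 645, 555 and 339, and the Krt13-rich cells 108, 186 and 115. The Top2a-rich cells numbered 42, 237 and 186 and the Vim-rich cells 21, 244 and 112. Gates can share cells, a gate is a range of counts rather than a cell type, and 1706 control, 1831 photon and 760 proton cells lay at the Krt14 limit or 1 UMI below it.

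In irradiated organoids the biosynthetic enzymes stood at a higher CPM in Krt14-rich cells than in other cells. These ratios compare levels and do not mean that most UMIs of the enzymes lay in the gate, which held 37.9% of photon and 8.84% of proton cells. Psat1 stood at 68.6 CPM (64.6 to 72.8) in Krt14-rich and 29.8 CPM in other photon cells, a ratio of 2.30 (2.09 to 2.53). With the limit at 1 UMI the photon ratio was 3.48 (2.85 to 4.29). In proton it stood at 102 CPM (90.4 to 115) and 39.7 CPM, a ratio of 2.58 (2.24 to 2.95). Control cells showed a smaller step, 37.8 against 29.0 CPM, at 1.30 (1.15 to 1.48). The interval of control lies below those of both irradiated libraries, and the difference between ratios was not otherwise tested.

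Asns behaved likewise, at 0.955 (0.865 to 1.05) in control, 1.67 (1.56 to 1.80) in photon and 1.58 (1.38 to 1.81) in proton, Krt14-rich over other cells. Phgdh stood at 1.31 (1.20 to 1.43), 1.63 (1.53 to 1.73) and 1.56 (1.37 to 1.78), the last at 1.27 (0.957 to 1.65) with the limit at the 90th percentile. Slc7a11 went the other way in every library, at 0.807, 0.734 and 0.783, although with the limit at 1 UMI control was level at 1.02 (0.989 to 1.05). Atf4 itself had ratios of 0.988, 1.05 and 1.10 whose intervals all include 1, with photon at 1.07 (1.01 to 1.14) at the 90th percentile. Chac1 was lower in Krt14-rich control cells, at 0.825 (0.740 to 0.920), and higher in Krt14-rich proton cells, at 2.04 (1.43 to 2.85) on 42 UMIs. Neither held at every limit, since the control ratio was 0.890 (0.751 to 1.05) at the 90th percentile and the proton ratio 1.21 (0.920 to 1.60) at 1 UMI. Median full depth inside and outside the gate was 3247 and 3195 UMIs in control, 3529 and 3263 in photon and 3274 and 3096 in proton. Photon levels from 2000 to under 4000 UMIs and at 4000 or more were 34.0 and 56.4 CPM for Psat1 and 87.4 and 124 CPM for Phgdh. The part of depth in the gate ratios was not tested.

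Cldn4-rich cells of the irradiated libraries held less Psat1 and Phgdh than other cells. Psat1 stood at 0.512 times other cells in photon (0.376 to 0.682) and 0.401 times in proton (0.253 to 0.604), and Phgdh at 0.584 and 0.669 times. Asns had intervals that include 1 in each library, at 1.01, 0.853 (0.711 to 1.02) and 0.847 (0.653 to 1.08). In control Psat1 was level across this gate at 1.15 (0.916 to 1.44), whereas Phgdh was lower there too, at 0.834 (0.699 to 0.989). Chac1 and Ddit4 were both higher in Cldn4-rich cells in control, each at a ratio of 1.40, and in photon, at 1.55 (1.18 to 1.99) and 1.70 (1.37 to 2.10). In proton their intervals included 1, though for Ddit4 the ratio was 1.43 (1.16 to 1.75) with the limit at 1 UMI.

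Psat1 was also high in Top2a-rich cells, 2.94 times other cells in control (1.88 to 4.40), 2.25 in photon (1.84 to 2.72) and 2.81 in proton (2.27 to 3.44), although the control gate held only 42 cells and 24 Psat1 UMIs. Phgdh stood at 2.34, 1.29 and 1.60 times other cells in the same gate. Slc7a11 was lower in dividing cells in each library, at 0.527, 0.766 and 0.648. The depth of Top2a-rich cells was greater, with medians of 6317, 4599 and 3961 UMIs against 3205, 3352 and 3098 outside.

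In Vim-rich cells Phgdh was 2.81 times (1.74 to 4.31) its level in other control cells, 1.95 times (1.70 to 2.23) in photon and 2.26 times (1.76 to 2.85) in proton. Asns stood at 1.81 and 1.84 times other cells in photon and proton. Krt13-rich cells had more Psat1 in every library, at 2.73, 2.04 and 1.95 times, with Ddit4 at 2.08 (1.54 to 2.75) in control. With the limit at 1 UMI the Psat1 ratios were 1.46, 1.48 and 1.23 (0.997 to 1.51). The control Vim gate held 21 cells, and its Phgdh ratio rests on 21 UMIs. Krt13-rich cells were deeper, with medians of 4925, 4205 and 3610 UMIs against 3199, 3365 and 3111 outside. Vim-rich cells were deeper too, at 4676, 4358 and 3709 against 3207, 3356 and 3109.

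**Figure D3:**
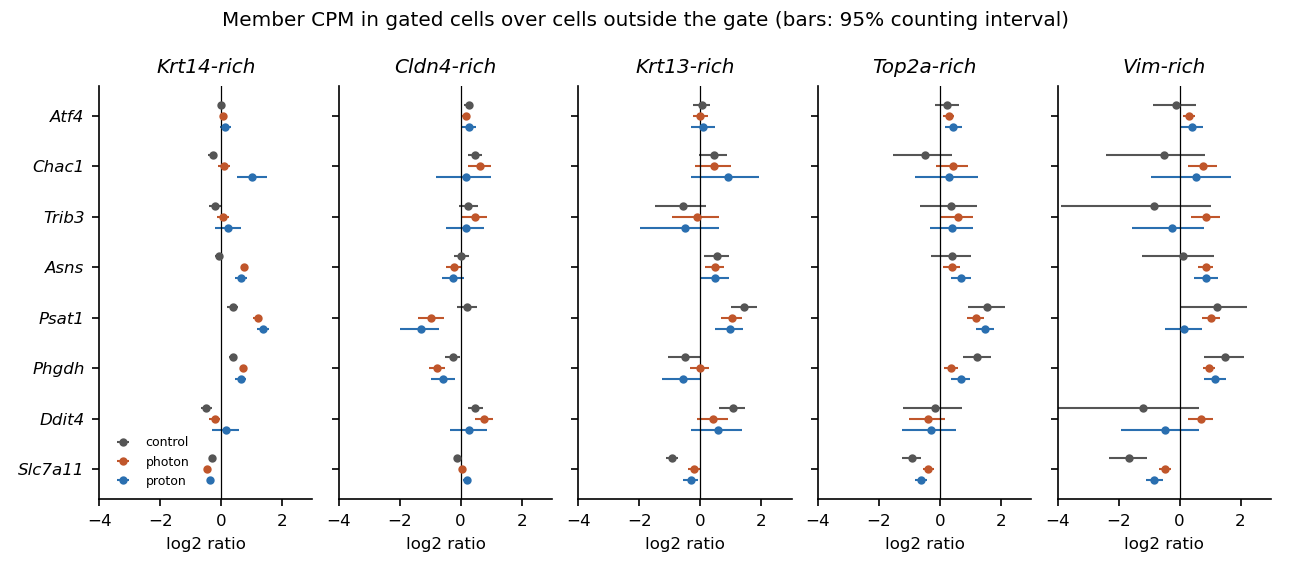
Log2 ratio of member CPM in marker-rich cells over the other cells of the same library (x axis), for 5 gates (panels) and 8 members (y axis), with 95% counting intervals. Psat1 in the Krt14 panel lies right of 0 in all 3 libraries and further right in photon and proton than in control.

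The differences between libraries were also taken within disjoint classes, in which each cell went to 1 gate (in the order Top2a, Vim, Krt13, Cldn4, Krt14) or to none. In 4 of these 6 classes, Krt13, Cldn4, Krt14 and cells in no gate, every library had at least 100 cells. Chac1 was below control in all 4, at 0.357 to 0.465 times control in photon and 0.143 to 0.319 times in proton, with every interval below 1. Atf4 stood at 0.552 to 0.615 times control in proton, again with all 4 intervals below 1, and at 0.852 to 0.913 times in photon, with 3 of 4 below 1. Slc7a11 was below control in all 4 classes in photon, at 0.395 to 0.677 times, and in proton in 3 of 4, with Krt13-rich cells at 0.915 (0.736 to 1.14). Ddit4 stood at 0.298 to 0.651 times control in proton in these classes.

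For the enzymes the ratio depended on the class. In Krt14-rich cells Psat1 stood at 36.3, 64.0 and 104 CPM from control through photon to proton, with ratios of 1.76 (1.55 to 2.01) and 2.87 (2.41 to 3.41). In Cldn4-rich cells it stood at 33.5, 23.8 and 19.3 CPM, with ratios of 0.710 (0.482 to 1.04) and 0.576 (0.345 to 0.928), the last on 23 proton UMIs. When 1 UMI of Cldn4 was enough for that gate, the proton ratio was 0.895 (0.733 to 1.09). Asns was 1.67-fold (1.51 to 1.86) and 1.59-fold (1.34 to 1.88) higher in Krt14-rich irradiated cells, and its intervals included 1 in the other 3 classes. Phgdh in photon ranged from 1.11 times control in Cldn4-rich to 2.13 times (1.38 to 3.36) in Krt13-rich cells. Krt14-rich cells made up 24.9% of control, 33.9% of photon and 7.58% of proton cells in this division, and Krt14 itself, a basis of the gate, stood at 0.531 times control in proton. A gated cell may thus not be the same state in each library, and that was not tested.

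The member levels also varied with how deeply a cell was sampled. Slc7a11 stood at 1980 CPM (1907 to 2054) in control cells under 1000 UMIs, 1211 CPM from 1000 to under 2000, 733 CPM from 2000 to under 4000 and 564 CPM (553 to 576) at 4000 or more. The same descent ran from 885 to 252 CPM in photon and from 902 to 357 CPM in proton. In each of the 4 depth ranges control was the highest library for this gene. Shallow control cells also had more of the nuclear-retained RNA Malat1, at 92608 CPM under 1000 UMIs and 30049 CPM at 4000 or more, and mitochondrial shares of 9.22% and 2.88%. The photon ratio of Slc7a11 to control was 0.359 (0.344 to 0.375) in cells under 2000 UMIs and 0.414 (0.404 to 0.423) in deeper ones. The part of shallow cells in the Slc7a11 level was not tested.

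Chac1 differed from Slc7a11 in this respect. Control cells under 2000 UMIs held 31.8 CPM and such photon cells 31.6 CPM, so the ratio was 0.995 (0.793 to 1.25). Deeper cells held 52.7 and 21.2 CPM, with the ratio at 0.403 (0.371 to 0.437). Within the shallow cells photon was nevertheless the lower library in both ranges, with overlapping intervals. Under 1000 UMIs Chac1 stood at 14.2 CPM (8.67 to 21.9) in 1690 control cells and 4.81 CPM (0.992 to 14.1) in 758 photon cells, the latter on 3 UMIs. From 1000 to under 2000 UMIs it stood at 40.6 CPM (33.5 to 48.8) and 34.8 CPM (29.9 to 40.1). In proton both parts were below control, at 0.425 (0.327 to 0.551) and 0.166 (0.145 to 0.190). Under 1000 UMIs alone proton was not lower, at 15.7 CPM (8.99 to 25.5) on 16 UMIs. From 1000 to under 2000 UMIs it stood at 13.2 CPM (10.7 to 16.1). Atf4 in photon even stood above control in shallow cells, at 1.29 (1.16 to 1.43), and below it in deeper ones, at 0.888 (0.858 to 0.919). Ddit4 had the reverse order under 1000 UMIs. It stood there at 11.4 CPM (6.49 to 18.4) in control, 17.6 CPM (8.80 to 31.6) in photon and 28.5 CPM (19.1 to 40.9) in proton. Under 2000 UMIs its ratios to control were 1.22 (0.959 to 1.56) in photon and 0.751 (0.586 to 0.966) in proton, against 0.692 and 0.415 in deeper cells.

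The enzymes were richer in deep irradiated cells. Psat1 in photon went from 15.5 CPM (12.4 to 19.2) at 1000 to under 2000 UMIs to 56.4 CPM (53.1 to 59.8) at 4000 or more, and Phgdh from 52.7 to 124 CPM. Both genes rose in control too over the same ranges, Psat1 from 26.0 CPM (20.4 to 32.7) to 39.2 CPM (36.1 to 42.4) and Phgdh from 59.5 to 73.2 CPM. Under 1000 UMIs control Psat1 stood at 39.0 CPM (29.4 to 50.8). Control cells under 2000 UMIs stood at 0.807 times deeper ones for Phgdh (0.703 to 0.923). For Psat1 this control ratio was 0.968 (0.800 to 1.16) and for Asns 1.20 (1.06 to 1.36). In cells under 2000 UMIs the photon ratios to control were 0.551 (0.420 to 0.722) for Psat1 and 0.640 (0.542 to 0.756) for Asns, against 1.43 and 1.26 in deeper cells. The direction of these 2 genes in photon thus turned with the depth of the cell. In proton the ratios under 2000 UMIs were 0.850 (0.679 to 1.07) for Psat1 and 0.745 (0.642 to 0.865) for Asns. In deeper proton cells they were 1.45 (1.34 to 1.57) and 1.07 (1.00 to 1.14).

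**Figure D4:**
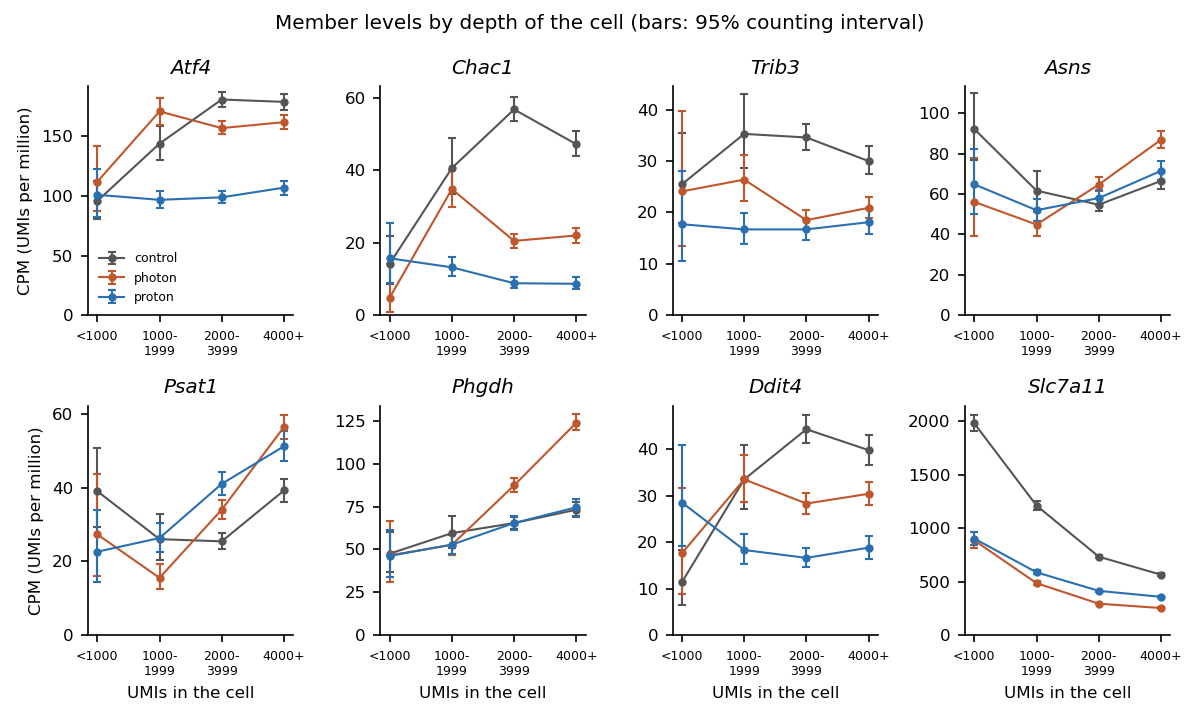
CPM of each member (y axis, from 0) in cells grouped by their UMI count (x axis), by library, with 95% counting intervals. Slc7a11 descends with depth in every library, while the control and photon levels of Chac1 lie apart from 2000 UMIs on.

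Other genes of the pathway were taken as lists. Their counts stand beside the shares over all genes at 25 CPM. In photon 8.19% of those were at least 1.5-fold lower and 5.75% higher, and in proton 14.9% were lower and 10.8% higher. The list of kinases and phosphatase subunits of eIF2, which also held Eif2s1 for a subunit of eIF2 itself, had all 8 genes at 25 CPM. Eif2ak2, which encodes the interferon-inducible RNA-activated kinase PKR, was 2.96-fold (2.83 to 3.09) higher in photon and 2.64-fold (2.52 to 2.76) higher in proton. Its levels were 68.9, 204 and 182 CPM, in the order control, photon, proton used for all lists. Ppp1r15a, the stress-induced phosphatase subunit GADD34, stood at 81.6, 77.3 and 25.5 CPM, 0.312 times control in proton (0.290 to 0.336), and Ppp1r15b, its constitutive relative, at 36.6, 24.5 and 31.3 CPM. The amino acid sensor kinase Eif2ak4, GCN2, stood at 35.0, 28.4 and 49.0 CPM and is named after its values were seen. In photon 1 of the 8 was at least 1.5-fold higher and 0 lower, and in proton 1 was higher and 1 lower, with medians of 0.05 and -0.20. The proton counts of this list are near the shares over all genes.

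Partner and target factors of ATF4 were mostly lower in proton, with 8 of 9 at least 1.5-fold lower, 0 higher and a median log2 ratio of -1.12. They were Atf3, Atf5, Cebpb, Cebpg, Nupr1, Jdp2, Eif4ebp1 and Herpud1. In photon 2 of 9 were lower and 0 higher, with a median of -0.53. Nupr1, a stress-induced chromatin protein, stood at 1267, 1427 and 497 CPM, Jdp2, an AP-1 repressor, at 89.3, 48.0 and 32.6 CPM, and Herpud1, a factor of ER-associated degradation, at 240, 120 and 76.4 CPM. Herpud1 and Jdp2 followed the order of Chac1, and Nupr1 was below control in proton alone.

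Beyond Psat1 and Phgdh, only 4 of 12 enzymes of serine, glycine and one-carbon metabolism reached 25 CPM in each comparison with control. Psph, the last enzyme of serine synthesis, stood at 46.8, 78.0 and 39.5 CPM and was 1.67-fold higher in photon (1.57 to 1.76), the same library in which Phgdh was highest. Mthfd2, a mitochondrial folate enzyme, stood at 82.3, 56.9 and 32.6 CPM, 0.396 times control in proton (0.370 to 0.423). Aldh18a1, of proline synthesis, stood at 36.2, 21.8 and 28.2 CPM. In photon 1 (Psph) was at least 1.5-fold higher and 2 lower (Mthfd1l and Aldh18a1, median -0.57), and in proton 0 were higher and 1 (Mthfd2) lower (median -0.30).

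Amino acid transporters were lower in 2 of 5 cases in each comparison with control and higher in 0, with medians of -0.54 in photon (Slc7a5 and Slc7a1 lower) and -0.57 in proton (Slc3a2 and Slc38a2 lower). Slc3a2, the heavy chain that pairs with xCT and with other light chains, stood at 281, 206 and 137 CPM, 0.488 times control in proton (0.472 to 0.504). Slc7a1, a cationic amino acid carrier, stood at 142, 74.8 and 101 CPM, lowest in photon like Slc7a11. Slc38a2, a neutral amino acid carrier, stood at 204, 141 and 125 CPM. Of 11 aminoacyl-tRNA synthetases and tRNA exporters at 25 CPM, 2 were lower in photon (Yars and Xpot) and 5 in proton (Gars, Lars, Nars, Tars and Yars), with 0 higher and medians of -0.23 and -0.52. Yars stood at 123, 63.9 and 65.5 CPM and Tars at 107, 113 and 55.9 CPM, while the tRNA exporter Xpot stood at 78.4, 48.0 and 72.8 CPM.

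NRF2 targets, with Slc7a11 among 9, were lower in 2 cases in photon (Osgin1 and Slc7a11) and 3 in proton (Nqo1, Hmox1 and Slc7a11) and higher in 0, with medians of -0.32 and -0.40. Hmox1, heme oxygenase, stood at 67.0, 53.9 and 24.5 CPM and Nqo1, a quinone reductase, at 52.3, 39.9 and 24.3 CPM, neither lowest in photon as Slc7a11 was. Osgin1, named after its values were seen, was lowest in photon too, at 70.9, 43.0 and 55.9 CPM. Glucocorticoid targets, with Ddit4 among 5 at 25 CPM, were lower in 4 cases in photon (Tsc22d3, Fkbp5, Sgk1 and Klf9) and in proton in 5 of 5, Ddit4 being the other one, with 0 higher and medians of -0.73 and -1.17. Sgk1, a kinase gene of the glucocorticoid response, stood at 341, 207 and 129 CPM, and Tsc22d3, which encodes GILZ, at 80.1, 48.3 and 35.2 CPM. Both followed the order of Ddit4. Immediate early genes, which cell dissociation is known to raise, were higher in 1 case (Fos) and lower in 0 of 9 in photon and lower in 6 of 9 in proton, with medians of -0.11 and -1.10. Jun stood at 931, 692 and 176 CPM, Dusp1 at 40.2, 36.2 and 10.5 CPM and Fos at 215, 359 and 96.9 CPM. Their part in the member levels was not tested.

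**Figure D5:**
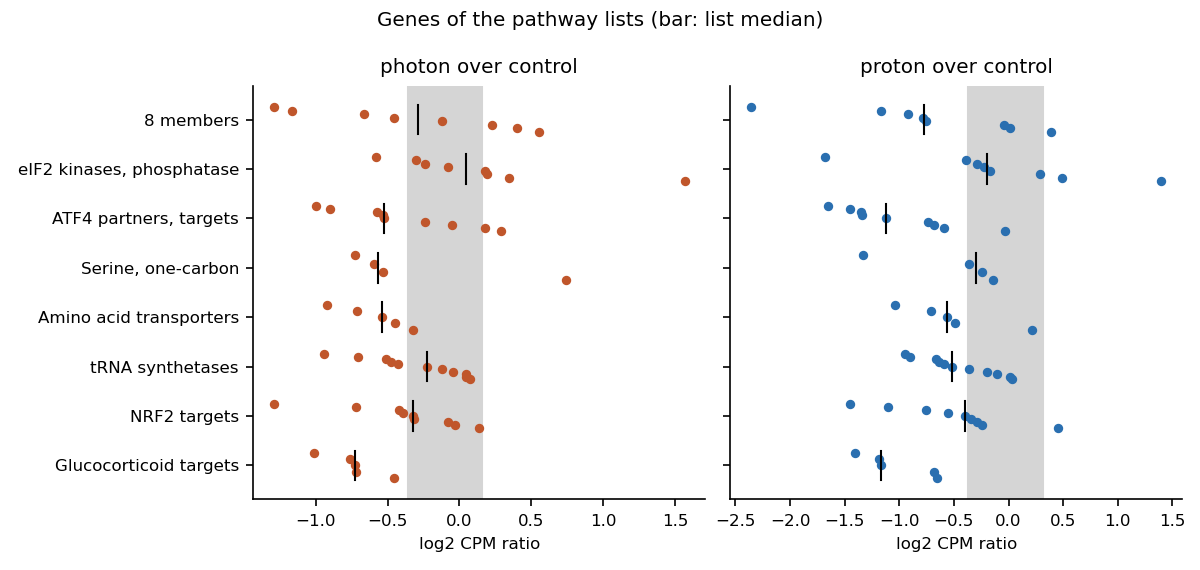
Log2 CPM ratio to control (x axis) of the 8 members and of the genes of 7 lists at a mean of at least 25 CPM (y axis), photon left and proton right. Points are genes, bars list medians and the shaded band holds the middle 50% of all genes; the partner and target factors have their median at -1.12 in proton.

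Patterns over 16 profiles, the disjoint classes by library with at least 100 cells, were alike among some members and unlike among others. Pearson's r of log2(CPM + 1) was 0.86 between Atf4 and Chac1, 0.89 between Chac1 and Ddit4, 0.78 between Atf4 and Trib3 and 0.70 between Atf4 and Ddit4, but 0.51 between Trib3 and Ddit4. It was 0.84 between Asns and Psat1 and 0.75 between Asns and Phgdh, but 0.49 between Psat1 and Phgdh. Between Atf4 and the enzymes it was 0.03 for Asns, -0.08 for Psat1 and 0.18 for Phgdh. Slc7a11 ran against the enzymes, at -0.82 with Asns, -0.72 with Phgdh and -0.61 with Psat1, and was only weakly like the others, at 0.06 with Atf4 and 0.36 with Chac1. These profiles share 3 libraries and their depth, so the values are descriptions.

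Over the same 16 profiles and 5846 genes, the genes most like Atf4 were Rap1b (r = 0.94), Sucla2 (0.93) and Dnaja2 (0.93). Rrs1 and Eif1, each at 0.91, were among those most like Chac1, and those most like Ddit4 were Dynlt3 (0.96), Mpzl2 (0.94) and Mcl1 (0.94). Asns was nearest to Actb (0.93), Srm (0.92) and Hdlbp (0.91), Psat1 to Hmgcs1 (0.95), Rps6 (0.94) and Rps25 (0.93), and Phgdh to Mtap (0.97), Lmna (0.94) and S100a10 (0.93). Slc7a11 was nearest to Asph (0.94), Luc7l2 (0.92) and Tulp3 (0.91). Trib3 had a mean under 25 CPM and was not searched.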

How the data were processed

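Transcripts were measured by 10x Genomics 3′ single-cell RNA sequencing in 3 libraries, 1 per group. The authors deposited raw UMI counts per gene and barcode, made with Cell Ranger 7.0.1 on mm10 per the submitters' processing notes, while the file headers name 7.0.0. The sources used here name no cell filter, annotation release or intron setting. Cells with at least 500 genes and at most 20% mitochondrial UMIs were kept. No doublets were removed; leaving out the 5% of cells with the most UMIs was an alternative. Kept UMIs totalled 39514768 in control, 46936995 in photon and 36692939 in proton, so 3 counts equal 0.0639 to 0.0818 CPM. With 1 library per group there was no test and no p-value. Ratios carry exact 95% conditional binomial intervals, shares Clopper-Pearson intervals and levels exact Poisson intervals, for counting error only. Ratio code was tested on simulated counts, and thinning code on control cells, each of which kept 2000 UMIs. Genes were counted by size, at least 1.5-fold with a mean of at least 25 CPM over the 2 libraries. Thinning drew 2000 UMIs per cell and left out 3599 control, 4150 photon and 6017 proton cells. Levels in gates used all UMIs of those cells. Named genes were the 8 members, the 3 genes of each list with the largest ratio to control among those at 25 CPM, and the 3 most correlated genes per member, of which 1 is not reported here. Gene positions come from GENCODE mouse release 21 (GRCm38) and promoters from RefSeq (GRCm38.p6). The exact letters of the promoter motif, and the division of cells by depth, were settled after the data were seen. The members and lists were chosen with earlier results of these data known. Python 3.11.15, numpy 2.4.6 and scipy 1.17.1 were used.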

Additional observations from a re-analysis of the deposited data

Results flagged for a closer look

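Psat1 moved in opposite directions between classes of cells under the same contrast. Proton over control, it was 2.87-fold higher in Krt14-rich cells and 1.39-fold higher in cells of no gate, whereas in Cldn4-rich cells it stood at 0.576 times control. Each interval lay wholly on its side of 1. The lower side rests on 23 proton UMIs and on the gate limit: with 1 UMI as the limit, Cldn4-rich cells stood at 0.895 times control (0.733 to 1.09), Krt14-rich cells at 1.80 (1.65 to 1.97) and cells outside the Krt14 gate at 0.794 (0.651 to 0.969). With 1 library per group the difference between classes was not tested.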

How the results depend on the processing

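Of the recomputed counts, 56 stayed within 1.5 times the value reported and 8 did not. Many of the 56 were counts of 0 members higher that stayed at 0. Of the recomputed member ratios, 144 stayed within the counting interval of the main value and 48 did not. No member at least 1.5-fold apart changed direction in any of 8 alternatives. Photon over control, 1 member (Phgdh) was higher instead of 0 when libraries were scaled by the median of gene ratios or the class mixture was held equal. Under that scaling 524 of all genes were higher and 215 lower in photon, instead of 333 and 474, and 804 and 1335 proton over photon, instead of 1318 and 948. A limit of 2-fold left 2 members lower in proton than control and 0 lower in proton than photon, and over all genes 132 higher and 49 lower in photon, 202 and 265 in proton, and 181 and 226 proton over photon (shares of higher calls 72.9%, 43.3% and 44.5%). It left Chac1 and Slc7a11 in photon and Chac1 and Ddit4 in proton. Proton over photon, 1 member (Atf4) was lower when cells weighed equally or were thinned to 2000 UMIs, and 4 with a level of 5 CPM. Ddit4 took the place of Phgdh without mitochondrial, ribosomal, Malat1 and Neat1 counts and with the class mixture held equal. With a level of 5 CPM the calls over all genes also rose, to 744 higher and 954 lower in photon, 1448 and 1517 in proton, and 2258 and 1418 proton over photon. At 4000 UMIs per cell, all 5 members still had smaller shares in both irradiated libraries, but with separate intervals for 3 rather than 5. In the gates, 70 of 120 intervals excluded 1, and 69 and 67 with limits of 1 UMI and the 90th percentile, which were not the same ones throughout. Asns and Phgdh in proton, at 1.01 and 0.972 times control, crossed 1 under some alternatives (0.924 to 1.10 and 0.936 to 1.03), as did Psat1 proton over photon (0.896 to 1.22). No paired analysis was possible because each group is 1 library. The cause of these shifts was not tested. The Vim and Top2a gates of control held only 21 and 42 cells.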
